A study of Homo sapiens with 6 samples.

Results

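The nuclear genes for subunits of respiratory complexes II, III and IV, of cytochrome c and of ATP synthase were followed in nascent RNA of SH-SY5Y cells, a human neuroblastoma line. The set was a list of 39 genes drawn up by name, 4 for complex II, 9 for complex III, 1 for cytochrome c, 10 for complex IV and 15 for ATP synthase, and all 39 were found among the 67051 gene identifiers of the count tables. Transcription was measured by PRO-seq, in which engaged RNA polymerases in isolated nuclei extend their transcripts with a biotin-labelled nucleotide and the new RNA is sequenced. The 6 libraries formed 3 groups of 2: untreated cells, cells given 0.1 mM MPP+ over 0.5 h, and cells given 0.1 mM MPP+ over 24 h. The labels give the untreated group no time, and it served as reference for both exposures. Effects of MPP+ and of time in culture therefore cannot be told apart. MPP+ is a neurotoxin that inhibits complex I. The labels give every group the same line and medium, and do not say whether the replicates were separate cultures, so p-values cover only the spread between libraries, which may be technical.

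Assigned counts ran from 5983066 to 11707612 per library, and the 39 genes together took 0.106% to 0.117% of them. All 8 adrenergic neuroblast markers of SH-SY5Y had counts, with a summed level of 2592 to 3009 CPM (counts scaled to a common library total with TMM factors) in untreated libraries, 2522 to 2910 CPM at 0.5 h and 2262 to 2864 CPM at 24 h. Mesenchymal and fibroblast markers summed to 146 to 148 CPM untreated, 136 to 154 CPM at 0.5 h and 157 to 170 CPM at 24 h, and the part of this in the members' values was not tested. Blood cell markers summed to 3.33 to 5.45 CPM over all libraries, and the Schwann cell marker SOX10 was listed at 0 in all 6. In these bulk libraries, fewer cells making a transcript and less RNA per cell cannot be told apart.

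Electrons from NADH and succinate enter the respiratory chain at complexes I and II, pass through ubiquinol to complex III, are carried by cytochrome c to complex IV and reduce oxygen there. Complexes III and IV pump protons, and ATP synthase lets them flow back to make ATP. Complex II is encoded by nuclear DNA alone, whereas complexes III, IV and ATP synthase join nuclear subunits with subunits made from mitochondrial DNA (mtDNA). In human cells, many nuclear subunit promoters bind NRF1, ETS-family factors such as GABP, and YY1.

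The 250 bases before the RefSeq start of 4 members are shown as examples of genes described below. No member passed at an edgeR adjusted p under 0.05 when the libraries were fitted by group alone. Among the members, UQCRC1 had the smallest p at 0.5 h and COX7C in the other comparisons, and UQCRH and CYCS were among the 4 members with the smallest p at 24 h. ATP5MC2 was also among those 4 and is not shown. Sequences are from RefSeq on GRCh38.p14, written 5′ to 3′ on the gene's strand, with capitals for a match to NRF1 or ETS letters on either strand. UQCRC1 lies at chr3:48609647-48609896 on the minus strand, UQCRH at chr1:46303448-46303697 on the plus strand, COX7C at chr5:86617691-86617940 on the plus strand and CYCS at chr7:25125261-25125510 on the minus strand.
UQCRC1: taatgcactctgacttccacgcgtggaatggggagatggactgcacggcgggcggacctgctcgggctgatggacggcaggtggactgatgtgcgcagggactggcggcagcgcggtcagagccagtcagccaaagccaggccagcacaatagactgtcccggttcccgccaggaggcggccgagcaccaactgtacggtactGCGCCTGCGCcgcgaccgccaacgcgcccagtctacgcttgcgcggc
UQCRH: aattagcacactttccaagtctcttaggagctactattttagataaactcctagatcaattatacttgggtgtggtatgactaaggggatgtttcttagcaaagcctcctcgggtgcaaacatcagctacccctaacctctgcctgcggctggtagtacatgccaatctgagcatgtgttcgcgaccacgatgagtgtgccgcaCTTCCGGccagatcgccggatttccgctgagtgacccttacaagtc
COX7C: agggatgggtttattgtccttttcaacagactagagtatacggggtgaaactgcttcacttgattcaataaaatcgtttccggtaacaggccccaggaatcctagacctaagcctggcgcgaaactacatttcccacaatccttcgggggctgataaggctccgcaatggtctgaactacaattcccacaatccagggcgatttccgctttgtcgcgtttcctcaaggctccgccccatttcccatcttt
CYCS: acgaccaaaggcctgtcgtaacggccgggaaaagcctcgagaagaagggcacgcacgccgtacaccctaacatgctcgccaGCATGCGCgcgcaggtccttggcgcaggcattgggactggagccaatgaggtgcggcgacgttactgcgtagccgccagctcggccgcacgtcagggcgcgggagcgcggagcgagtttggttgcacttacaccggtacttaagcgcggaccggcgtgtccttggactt
The capitals mark an NRF1 palindrome 47 bases before the start in UQCRC1, an ETS match 46 bases before it in UQCRH and an NRF1 core 169 bases before it in CYCS. COX7C held none of the letters searched in this window.

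Of the 39 members, 31 had a RefSeq promoter entry, with 36 entries in all, and each entry was searched over 300 bases, of which 50 follow the start. The ETS letters CCGGAAG were found in 44.4% of member entries and 10.3% of all 35116 promoter entries. The NRF1 palindrome, which is GCGCA and GCGC with any single base between them, stood in 25% against 5.78%, and the NRF1 core GCATGCGC in 27.8% against 3.05%. These spellings can overlap within a longer palindrome, and 44.4% of member entries against 7.24% of all held either. The YY1 letters AAGATGGC were found in 16.7% against 2.89%. These shares describe the letters only and not binding.

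Detection was uneven among the members. A filter on low counts was passed by 30 members, made up of 2 of 4 for complex II, 8 of 9 for complex III, CYCS, 9 of 10 for complex IV and 10 of 15 for ATP synthase. Another 7 were listed at 0 in all 6 libraries: SDHA, the flavoprotein that oxidises succinate, COX8A, a small subunit of complex IV, and the ATP synthase genes ATP5PD and ATP5PO of the stalks, ATP5MC1 of the c ring, and ATP5MF and ATP5MG of the membrane part. SDHD, a membrane anchor of complex II, had 3 to 9 counts in each library, and UQCR11, a small subunit of complex III, had 1 count in total. Of 37 nuclear complex I subunit genes, 4 were also listed at 0 in all libraries, as were 12.9% of 19914 protein-coding genes.

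The pseudogenes named after SDHA held 6894 counts over the 6 libraries, of which SDHAP4 held 3186, beside 0 on SDHA itself (ENSG00000073578.17, chromosome 5, 218241 to 256700). In GENCODE 29 annotation, 34.5% of the exonic bases of COX8A and 19.6% of those of ATP5PO are shared with another gene on the same strand. The share is 0% for SDHA, ATP5PD and ATP5MC1. Of the 67051 identifiers counted, 6357 had no symbol and are not in GENCODE 29. Exons shared with those genes are not in these shares. How the authors assigned reads that fit several places or genes is not given in the sources used here, so a part of these listings in copies or overlaps was not tested. No statement on transcription of these 9 genes can be drawn from the tables.

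Among the 30 tested members, mean levels over all libraries ran from 2.41 CPM for UQCR10 to 144 CPM for CYCS, with a median of 29.2 CPM. Per kilobase of exon, UQCRH stood highest at 39.0 CPM per kb, followed by COX7A2 at 33.3, CYCS at 32.3, ATP5PF at 26.3 and COX6B1 at 24.0 CPM per kb. In the untreated libraries UQCRH had 45.8 and 40.1 CPM per exonic kb, above both libraries of COX7A2 with 33.3 and 34.3 and of CYCS with 36.1 and 32.9. COX7A2 and CYCS overlapped each other. ATP5MC3, UQCRB and UQCR10 were lowest of the tested genes, at 2.15, 2.19 and 2.47 CPM per exonic kb. Nascent reads also fall in introns, and per kilobase of the whole gene span CYCS led with 27.3 CPM per kb, followed by CYC1 at 16.0 and UQCRQ at 8.06, so the order depends on the length used. Of the 30 genes, 24 have a gene named as their copy in the tables, and reads could be split between them. UQCRHL, a near-identical copy of UQCRH, held 292 counts beside 2769 on UQCRH, and the 42 copies named after CYCS held 0.601% of its counts.

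**Figure D1:**
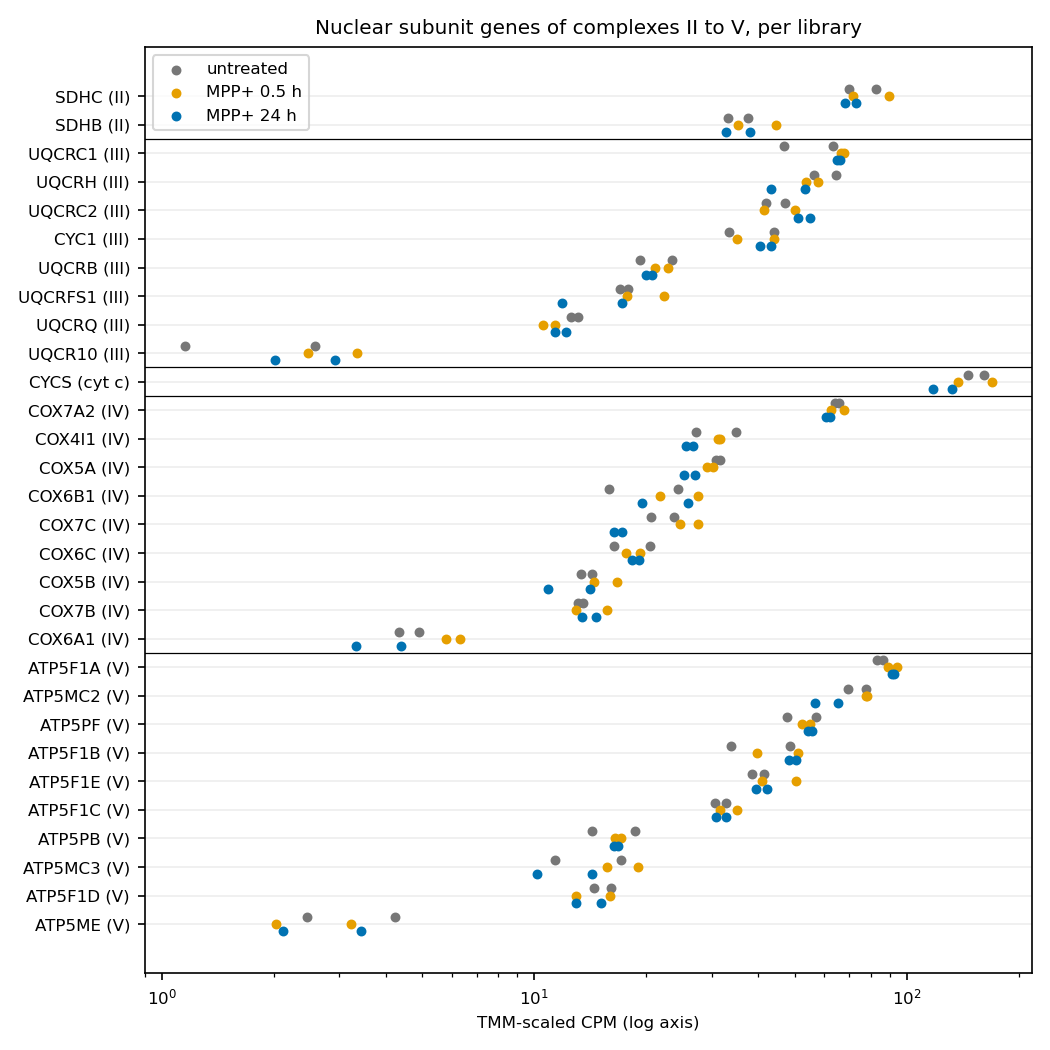
TMM-scaled CPM per library (log axis) of the 30 tested members, grouped by complex and ordered by mean level, with gray points for untreated libraries, orange for MPP+ 0.5 h and blue for MPP+ 24 h. Levels span 2.41 CPM (UQCR10) to 144 CPM (CYCS), and for most genes the 3 groups lie close together.

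The first comparison set 0.5 h of MPP+ against untreated cells. No member passed the quasi-likelihood test of edgeR over all 23133 tested genes, and every member had an adjusted p of 0.9997. In the same comparison 0.0735% of all tested genes passed, each of them lower. At an unadjusted p under 0.05 there were 0 of 30 members, against 1.05% of all genes higher and 1.41% lower. DESeq2 called 0 members, and had 0 of 30 at that unadjusted p, against 139 of 23133 genes. The median log2 fold change of the members was 0.071, against 0.0082 over all genes, with 23 of 30 members above 0 (76.7%, against 52.1% of all genes). Both 0.5 h libraries lay above both untreated libraries for 5 of 30 members (16.7%, against 12.9% of all genes), which were COX5B, UQCRC1, COX7C, COX6A1 and ATP5F1A, and below them for UQCRQ and COX5A (6.67%, against 14.4%). With the replicate number as a block, which the labels do not say pairs the libraries, edgeR called 0 of 30 members and 57 of 23133 genes. The members' median was 0.012 without 0.5 h replicate 2, 0.044 without control replicate 1 and 0.14 without control replicate 2, and it was -0.030 over the 6 members that have no named copy.

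After 24 h of MPP+, again no member passed in edgeR, with adjusted p from 0.602 to 0.9991, while 0.0692% of all tested genes passed, each of them lower. At an unadjusted p under 0.05 there were 4 members, all lower (13.3%, against 4.09% of all genes lower at that p) and none higher, against 4.01% of all genes. These were COX7C of complex IV, UQCRH of complex III, ATP5MC2 of the ATP synthase c ring, and CYCS. DESeq2 called 0 members, and had 0 of 30 at an unadjusted p under 0.05, against 755 of 23133 genes. With the replicate number as a block edgeR called 1 of 30 members, CYCS, and 685 of 23133 genes. When any 1 library was left out, the log2 fold change ran from -0.50 to -0.31 for COX7C and from -0.48 to -0.18 for UQCRH. It ran from -0.38 to -0.17 for ATP5MC2 and from -0.38 to -0.22 for CYCS. The median log2 fold change of the members was -0.075, against 0.0023 over all genes, with 18 of 30 members below 0 (60%, against 49.6% of all genes). Both 24 h libraries lay below both untreated libraries for 8 of 30 members (26.7%, against 18.5% of all genes) and above them for UQCRC1, UQCRC2 and ATP5F1A (10%, against 18.8%). The members' median was -0.14 without control replicate 1, -0.014 without control replicate 2 and -0.014 without 24 h replicate 1. It was -0.13 over the 6 members with no named copy.

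Between 24 h and 0.5 h of MPP+, 0 members and 0% of all genes passed in edgeR, with adjusted p from 0.754 to 0.998 for the members. At an unadjusted p under 0.05 there were again 4 members, all lower at 24 h (13.3%, against 3.62% of all genes lower at that p) and none higher, against 2.8% of all genes. These were COX7C, ATP5MC2, COX6A1 and CYCS. DESeq2 called 0 members, with 2 of 30 at an unadjusted p under 0.05, against 503 of 23133 genes. With the replicate number as a block edgeR called 3 of 30 members, COX7C, ATP5MC2 and CYCS, and 412 of 23133 genes. The members' median log2 fold change was -0.12, against 0.0029 over all genes, with 23 of 30 members below 0 (76.7%, against 49.5% of all genes). It was -0.028 without 0.5 h replicate 2 and 0.022 over the 6 members with no named copy. Both 24 h libraries lay below both 0.5 h libraries for 13 of 30 members (43.3%, against 19% of all genes) and above them for UQCRC2 alone (3.33%, against 19.4%). This comparison shares its 24 h libraries with the one before, and its 0.5 h libraries with the first.

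The intervals show what size of difference these libraries leave room for. At 0.5 h the 95% interval of the log2 fold change lay within a 2-fold change for 28 of 30 members (93.3%, against 81.6% of all genes) and within 1.5-fold for 21 (70%, against 52%). At 24 h it lay within 2-fold for 28 (93.3%, against 77.8%) and within 1.5-fold for 19 (63.3%, against 45.6%), and between 24 h and 0.5 h within 2-fold for 26 (86.7%, against 80.2%) and within 1.5-fold for 20 (66.7%, against 47.4%). UQCR10 and ATP5ME, with 8 to 36 counts in a library, had intervals beyond 2-fold in all 3 comparisons.

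**Figure D2:**
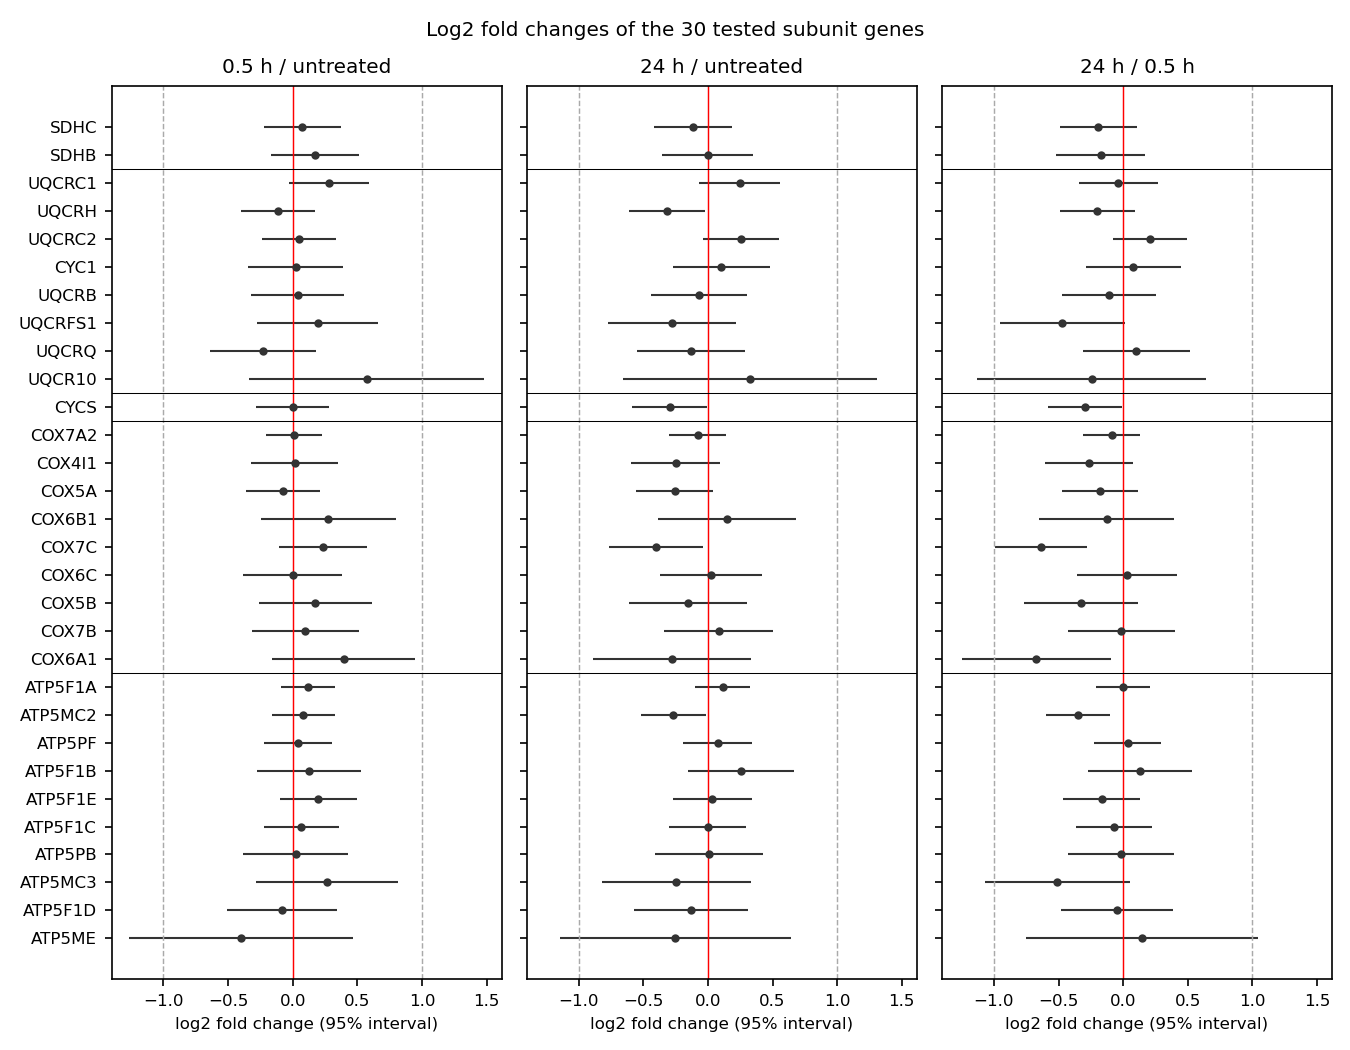
Log2 fold changes with 95% intervals for the 30 tested members by complex, for 0.5 h over untreated, 24 h over untreated and 24 h over 0.5 h, where dashed lines mark a 2-fold change and the red line 0. Most intervals include 0 and lie inside the dashed lines, and COX7C lies farthest from 0 relative to its interval in the 24 h over 0.5 h panel, at -0.64.

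Complex II, which links the citric acid cycle to the chain, is represented by SDHB and SDHC. SDHB (ENSG00000117118.10, chromosome 1, 17018722 to 17054170), the iron-sulfur subunit, had 33.2 and 37.4 CPM in untreated libraries, 35.2 and 44.6 CPM at 0.5 h and 32.8 and 38.0 CPM at 24 h. The groups overlapped. SDHB had a log2 fold change of 0.17 ± 0.15 (SE) at 0.5 h, -0.0026 ± 0.16 at 24 h (edgeR adjusted p = 0.9991) and -0.17 ± 0.15 between 24 h and 0.5 h (adjusted p = 0.856). SDHC (ENSG00000143252.16, chromosome 1, 161314257 to 161375340), a membrane anchor, had 70.0 and 82.8 CPM untreated, 71.9 and 89.7 CPM at 0.5 h and 68.5 and 72.9 CPM at 24 h. Its groups overlapped as well, with log2 fold changes of 0.075 ± 0.13 at 0.5 h, -0.12 ± 0.13 at 24 h (adjusted p = 0.877) and -0.19 ± 0.13 between the times (adjusted p = 0.824).

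In complex III, 4 of 8 tested members had a log2 fold change above 0 at 24 h, and for the core proteins UQCRC1 and UQCRC2 both 24 h libraries lay above both untreated ones. UQCRC1 (ENSG00000010256.11, chromosome 3, 48599002 to 48610976) had 46.8 and 63.3 CPM in untreated libraries, 66.5 and 67.8 CPM at 0.5 h and 64.9 and 66.1 CPM at 24 h. All 4 MPP+ libraries were above both untreated ones, which differed more from each other than the MPP+ libraries did. Its log2 fold change at 0.5 h was 0.28 ± 0.14 (edgeR unadjusted p = 0.068), and at 24 h 0.25 ± 0.14 (adjusted p = 0.71). The value at 0.5 h was 0.084 without control replicate 1 and 0.51 without control replicate 2. UQCRC2 (ENSG00000140740.11, chromosome 16, 21952660 to 21983660) had 47.1 and 42.0 CPM untreated, 50.2 and 41.5 CPM at 0.5 h and 55.0 and 51.1 CPM at 24 h. The 24 h libraries were the highest, at 0.26 ± 0.13 over untreated (adjusted p = 0.662) and 0.21 ± 0.13 over 0.5 h (adjusted p = 0.8).

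UQCRH (ENSG00000173660.12, chromosome 1, 46303631 to 46316776), the hinge protein beside cytochrome c1, had 64.5 and 56.5 CPM in untreated libraries, 57.8 and 53.7 CPM at 0.5 h and 53.3 and 43.3 CPM at 24 h. The 24 h libraries lay below all others, the higher of them only slightly, and the log2 fold change against untreated was -0.32 ± 0.13 (edgeR unadjusted p = 0.0365, adjusted p = 0.602). UQCRFS1, the Rieske iron-sulfur protein, had 17.0 and 17.8 CPM untreated, 17.7 and 22.3 CPM at 0.5 h and 11.8 and 17.2 CPM at 24 h. Its 24 h libraries were below the 0.5 h ones by a log2 fold change of -0.47 ± 0.21 (adjusted p = 0.768), and they differed widely from each other. The small subunit UQCRQ had 12.6 and 13.1 CPM untreated, 10.6 and 11.4 CPM at 0.5 h and 11.4 and 12.2 CPM at 24 h, at -0.23 ± 0.18 for 0.5 h over untreated. UQCR10, at 2.47 and 3.33 CPM at 0.5 h and 1.15 and 2.58 CPM untreated, had 0.57 ± 0.40 in that comparison on 8 to 29 counts a library. The remaining tested genes, UQCRB and CYC1, had log2 fold changes from -0.11 to 0.10 in the 3 comparisons.

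CYCS (ENSG00000172115.9, chromosome 7, 25120091 to 25125361) encodes cytochrome c, the mobile carrier between complexes III and IV. It had 161 and 146 CPM in untreated libraries, 169 and 138 CPM at 0.5 h and 132 and 118 CPM at 24 h. Both 24 h libraries were below all 4 others, while the untreated and 0.5 h libraries overlapped. The log2 fold change at 24 h was -0.30 ± 0.13 over untreated (edgeR unadjusted p = 0.0448, adjusted p = 0.607) and -0.30 ± 0.13 over 0.5 h (unadjusted p = 0.0445, adjusted p = 0.768). With the replicate number as a block, the edgeR adjusted p of CYCS was 0.0317 over untreated and 0.0465 over 0.5 h. The value over 0.5 h was -0.14 without 0.5 h replicate 1.

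Complex IV, cytochrome c oxidase, held the member with the smallest p of all. COX7C (ENSG00000127184.13, chromosome 5, 86617904 to 86620962), a small membrane subunit, had 20.6 and 23.7 CPM in untreated libraries, 27.6 and 24.6 CPM at 0.5 h and 17.2 and 16.4 CPM at 24 h. The groups did not overlap, with 0.5 h highest and 24 h lowest. Its log2 fold change was 0.23 ± 0.15 at 0.5 h, -0.40 ± 0.16 at 24 h (edgeR unadjusted p = 0.033, adjusted p = 0.602) and -0.64 ± 0.16 between 24 h and 0.5 h (95% interval -0.99 to -0.28, unadjusted p = 0.00269, adjusted p = 0.754). With the replicate number as a block, the edgeR adjusted p of COX7C between the times was 0.023. COX6A1 (ENSG00000111775.3, chromosome 12, 120438090 to 120440742), another small subunit, had 4.91 and 4.34 CPM untreated, 5.81 and 6.32 CPM at 0.5 h and 3.32 and 4.38 CPM at 24 h. It was highest at 0.5 h, at 0.39 ± 0.25 over untreated, and the 24 h libraries stood at -0.67 ± 0.26 relative to 0.5 h (unadjusted p = 0.027, adjusted p = 0.764). COX6A1 had 27 to 66 counts a library, and 13.0% of its exonic bases are shared with another gene on the same strand.

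COX4I1, which adjusts the activity of the enzyme, had 27.1 and 34.7 CPM in untreated libraries, 31.2 and 31.5 CPM at 0.5 h and 25.6 and 26.6 CPM at 24 h. The 24 h libraries were lowest, at -0.25 ± 0.15 over untreated (edgeR adjusted p = 0.731) and -0.26 ± 0.15 over 0.5 h (adjusted p = 0.792). The value over untreated was -0.068 without control replicate 2 and -0.41 without control replicate 1. COX5A had 31.6 and 30.8 CPM untreated, 29.1 and 30.2 CPM at 0.5 h and 27.0 and 25.2 CPM at 24 h. Each treated group lay below the untreated libraries, with -0.26 ± 0.13 at 24 h (adjusted p = 0.672). COX6B1, which faces the intermembrane space, had 15.9 and 24.4 CPM untreated, 21.8 and 27.5 CPM at 0.5 h and 19.4 and 25.8 CPM at 24 h, and its groups overlapped, with 0.28 ± 0.23 at 0.5 h and 0.0075 to 0.62 when any 1 library was left out. Of the other members, COX7A2 had 64.1 and 65.9 CPM untreated, 68.0 and 62.8 CPM at 0.5 h and 62.1 and 60.9 CPM at 24 h. Its log2 fold changes were 0.0092 at 0.5 h and -0.080 at 24 h. COX5B, COX6C and COX7B had log2 fold changes between -0.33 and 0.18 in the 3 comparisons.

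**Figure D3:**
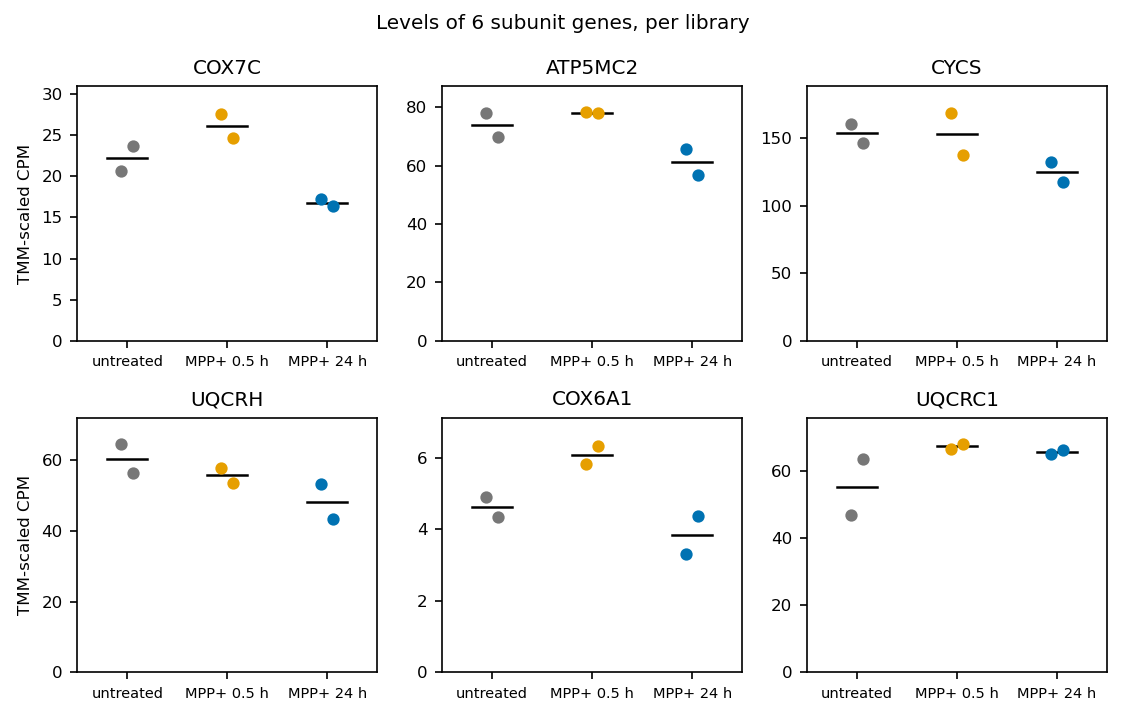
TMM-scaled CPM of 6 named members in each library, with points for libraries and a bar for the mean of 2, in untreated cells, MPP+ 0.5 h and MPP+ 24 h, on axes from 0. COX7C has 17.2 and 16.4 CPM at 24 h, below its 0.5 h and untreated libraries, and UQCRC1 has 46.8 and 63.3 CPM in untreated libraries, below all 4 MPP+ libraries.

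In ATP synthase, the 7 tested genes of the catalytic head and stalks had log2 fold changes from -0.16 to 0.26 over the 3 comparisons. ATP5F1A (ENSG00000152234.16, chromosome 18, 46080248 to 46104334), the alpha subunit, had 83.1 and 86.2 CPM in untreated libraries, 94.4 and 89.3 CPM at 0.5 h and 92.3 and 91.2 CPM at 24 h. All 4 MPP+ libraries lay above both untreated ones, at 0.12 ± 0.094 for 0.5 h and 0.12 ± 0.095 for 24 h (edgeR adjusted p = 0.809). ATP5F1B, the catalytic beta subunit, had 33.8 and 48.6 CPM untreated, 39.5 and 50.9 CPM at 0.5 h and 50.5 and 48.2 CPM at 24 h, and its groups overlapped, with 0.26 ± 0.18 at 24 h (adjusted p = 0.766). That value was 0.023 without control replicate 1 and 0.54 without control replicate 2. ATP5F1E, the epsilon subunit, had 41.4 and 38.5 CPM untreated, 50.5 and 40.9 CPM at 0.5 h and 42.2 and 39.4 CPM at 24 h. Its groups overlapped too, with 0.20 ± 0.13 at 0.5 h and -0.16 ± 0.13 between 24 h and 0.5 h (adjusted p = 0.844). These values were 0.037 and -0.0026 without 0.5 h replicate 1, and 0.34 and -0.31 without 0.5 h replicate 2. The gamma subunit gene ATP5F1C, the delta subunit gene ATP5F1D, and the stalk genes ATP5PB and ATP5PF had log2 fold changes from -0.13 to 0.074 in the 3 comparisons.

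The c ring of the membrane motor is made from ATP5MC1, ATP5MC2 and ATP5MC3, which encode the same mature protein. ATP5MC1 was listed at 0. ATP5MC2 (ENSG00000135390.21, chromosome 12, 53632726 to 53677408) had 78.0 and 69.8 CPM in untreated libraries, 78.2 and 77.9 CPM at 0.5 h and 65.5 and 56.8 CPM at 24 h, and the 24 h libraries lay below all others. Its exonic bases are 6.99% shared with another gene on the same strand, and its log2 fold change was 0.081 ± 0.11 at 0.5 h, -0.27 ± 0.11 at 24 h over untreated (edgeR unadjusted p = 0.0384, adjusted p = 0.602) and -0.35 ± 0.11 over 0.5 h (unadjusted p = 0.0107, adjusted p = 0.754). With the replicate number as a block, the adjusted p over 0.5 h was 0.0449. ATP5MC3 (ENSG00000154518.10, chromosome 2, 175176258 to 175184607) had 11.4 and 17.1 CPM untreated, 15.7 and 19.0 CPM at 0.5 h and 10.2 and 14.3 CPM at 24 h. The 24 h libraries were below the 0.5 h libraries but overlapped the untreated ones, at 0.27 ± 0.24 for 0.5 h and -0.24 ± 0.26 for 24 h over untreated (adjusted p = 0.859) and -0.51 ± 0.25 between the times (adjusted p = 0.769). ATP5ME, the e subunit, had between 2.03 and 4.22 CPM in the 6 libraries, with overlapping groups. In GENCODE 29, 0% of its exonic bases are shared with another gene on the same strand, and 61.6% when both strands are counted.

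Summed over all 39 genes, the level was 1085 and 1137 CPM in untreated libraries, 1165 and 1174 CPM at 0.5 h and 1073 and 1061 CPM at 24 h. The complex III sum was 242 and 263 CPM untreated, 261 and 267 CPM at 0.5 h and 259 and 256 CPM at 24 h. For complex IV it was 212 and 227 CPM untreated, 231 and 232 CPM at 0.5 h and 199 and 205 CPM at 24 h. The ATP synthase sum was 367 and 379 CPM untreated, 396 and 402 CPM at 0.5 h and 380 and 370 CPM at 24 h. These sums leave out what the genes listed at 0 would add, and no test was run on them, since 6 splits of 4 libraries allow no exact two-sided p below 0.333.

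In the same libraries the mtDNA-encoded partners fell at both times, except that MT-ATP8 missed the threshold at 24 h, at -1.60 ± 0.28 (edgeR adjusted p = 0.18). MT-CYB of complex III, MT-CO1, MT-CO2 and MT-CO3 of complex IV, and MT-ATP6 and MT-ATP8 of ATP synthase had a median log2 fold change of -2.23 at 0.5 h, with 6 of 6 past the edgeR test, and of -2.03 at 24 h, with 5 of 6 past it. The nuclear complex IV sum was 1.05 times untreated at 0.5 h and 0.921 times at 24 h, while the sum of its mtDNA partners was 0.208 times untreated at 0.5 h and 0.234 times at 24 h. The nuclear over mtDNA ratio of summed CPM for complex IV was 0.633 and 0.744 in untreated libraries, 3.80 and 3.19 at 0.5 h and 2.14 and 3.62 at 24 h. For complex III it was 2.48 and 2.68 untreated, 12.9 and 9.88 at 0.5 h and 14.7 and 18.1 at 24 h, and for ATP synthase 9.004 and 8.491 untreated, 54.9 and 35.3 at 0.5 h and 28.1 and 36.2 at 24 h. In each complex the MPP+ libraries lay above both untreated ones, and these ratios are of summed counts, not of proteins or of per-length levels. PRO-seq uses isolated nuclei, and how much mitochondrial material came with them is not given in the sources used here. Its part in the mtDNA values and ratios was not tested.

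**Figure D4:**
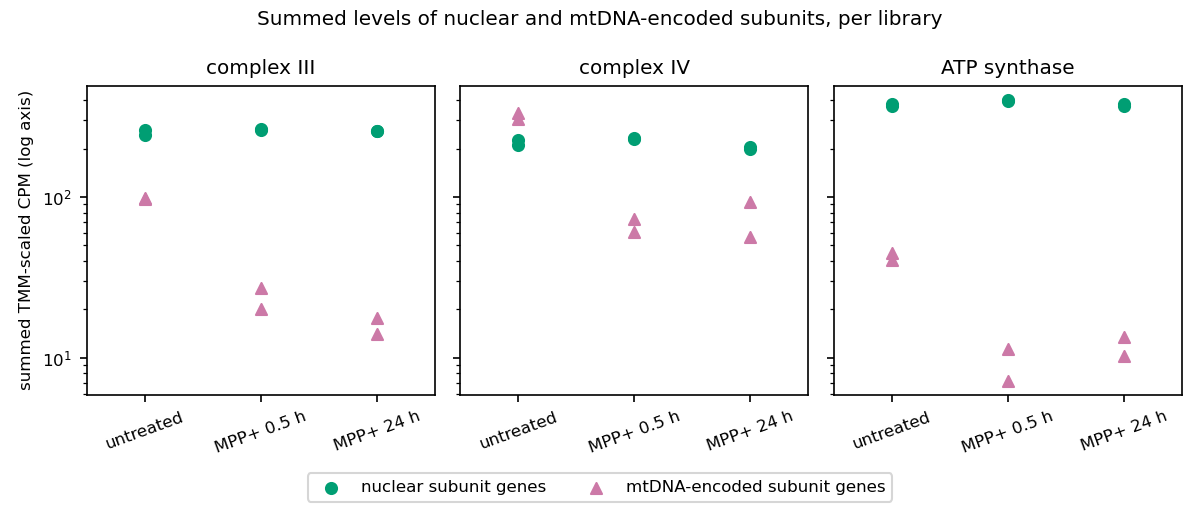
Summed TMM-scaled CPM (log axis) of nuclear subunit genes (circles) and mtDNA-encoded subunit genes (triangles) of complex III, complex IV and ATP synthase, in each library of untreated cells, MPP+ 0.5 h and MPP+ 24 h. The nuclear sums of complex IV lie between 199 and 232 CPM in all libraries, while the mtDNA sums of complex IV are 61 to 73 CPM at 0.5 h and 57 to 93 CPM at 24 h, against 305 and 335 CPM in untreated libraries.

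Of the other nuclear genes of the pathway in the lists, none passed the edgeR test. Nuclear complex I subunits, 32 of 37 tested, had a median log2 fold change of 0.093 at 0.5 h, -0.096 at 24 h and -0.15 between 24 h and 0.5 h. Complex IV assembly factors, 17 of 26 tested, had 0.050 at 0.5 h, -0.11 at 24 h and -0.18 between the times. Complex III assembly factors, 7 of 8 tested, had 0.13 at 0.5 h, 0.0059 at 24 h and -0.010 between the times. UQCC2, an assembly factor of complex III, had 70.7 and 62.6 CPM untreated, 75.5 and 81.6 CPM at 0.5 h and 59.0 and 46.6 CPM at 24 h. Its 24 h libraries lay below all others, with a log2 fold change between 24 h and 0.5 h of -0.57 ± 0.13 (edgeR unadjusted p = 0.00169, adjusted p = 0.754). DMAC2L, a factor associated with ATP synthase, had 38.4 and 34.6 CPM at 24 h against 47.6 and 49.3 CPM in untreated libraries, and a log2 fold change of -0.41 ± 0.11 (unadjusted p = 0.00533, adjusted p = 0.522). Regulators of nuclear subunit genes, 9 of 9 tested, had medians of -0.047 at 0.5 h and -0.090 at 24 h. At 24 h, 8 of the 9 were below 0 (88.9%, against 49.6% of all genes) and 1 was above. Among them PPRC1 had 81.5 and 70.0 CPM at 24 h against 127 and 93.8 CPM in untreated libraries. Its log2 fold change at 24 h was -0.54 ± 0.15 (edgeR unadjusted p = 0.00495, adjusted p = 0.522).

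The authors' deposited table of differential genes for 0.5 h lists 17 genes and the one for 24 h lists 24 genes. Neither holds a member, and each includes 14 mtDNA genes.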

How the data were processed

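PRO-seq was performed on SH-SY5Y cells, with 2 libraries for each of 3 groups assigned from the labels. The submitters' processing notes name cutadapt 1.16.5, Bowtie2 2.4.2, featureCounts 2.0.1, DESeq2 2.11.40.6 and hg38. Per the file headers the deposited files hold raw counts per gene for each library. For the counting step, the strand, feature and multimapping settings and the annotation are not stated in the sources used here. Tables of differential genes deposited by the authors give log2 fold changes, a standard error, a Wald score, p-values, a mean signal of normalized counts, and other columns with positions, per the file headers, and only their gene lists were used.

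Of 67051 identifiers, 60481 took their symbol from a table of gene names and 213 took it from GENCODE 29. Counts were filtered with filterByExpr by group (23133 genes), normalized by TMM and fitted by group over the 6 libraries with edgeR 4.0.16 (R 4.3.3), with 3 residual degrees of freedom and a biological coefficient of variation of 0.113. Quasi-likelihood tests were two-sided, with Benjamini-Hochberg adjustment over the whole tested table and 0.05 as threshold. SE is the log2 fold change divided by the root of its F statistic. Intervals cover 95%. DESeq2 1.42.0 was an alternative, and the pipeline was tested on simulated data. The libraries of a group differed beyond counting error, at 4.01 to 8.92 chi-square units per degree of freedom.

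The members and lists were chosen with earlier results of these data known. In full were named the complex II and c-ring genes, any member past the threshold, and in each comparison the 3 members with the smallest p in complex III with cytochrome c, complex IV and ATP synthase. From other lists up to 2 genes with the smallest p could be named, and not all of these are given.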

Additional observations from a re-analysis of the deposited data

How the results depend on the processing

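No member passed the threshold in any comparison under RLE or upper-quartile normalization, without a filter on low counts, with a mean of at least 50 counts required, with only the groups compared in the fit, under DESeq2 or without any 1 library. The replicate block was the exception. The labels do not say that replicate numbers pair samples, and deviations of same-numbered libraries correlated at 0.29 to 0.33. With the replicate block, edgeR called 57, 685 and 412 of 23133 genes at 0.5 h, at 24 h and between 24 h and 0.5 h. Of 30 members it called 1 at 24 h (CYCS, -0.30, adjusted p = 0.0317) and 3 between the times (COX7C, -0.64, adjusted p = 0.023, ATP5MC2, -0.35, adjusted p = 0.0449, and CYCS, -0.29, adjusted p = 0.0465). No filter gave 66, 245 and 73 genes, and DESeq2 gave 31 at 24 h. Without 1 library, all genes called ran from 9 to 19 at 0.5 h, 8 to 16 at 24 h and 0 to 0 between the times, and the members' median from 0.012 to 0.14, from -0.14 to -0.014 and from -0.16 to -0.028. Over the 6 members with no named copy the median was -0.030 at 0.5 h, -0.13 at 24 h and 0.022 between the times. SDHB at 24 h, at -0.0026, became 0.010 under upper-quartile normalization, 0.0013 with no filter and 0.0060 with the replicate block. Without 1 library, SDHB ran from -0.0082 to 0.34 at 0.5 h, from -0.11 to 0.10 at 24 h and from -0.34 to 0.0012 between the times. SDHC ran from -0.093 to 0.23 at 0.5 h and from -0.23 to 0.0018 at 24 h, ATP5MC2 from -0.0053 to 0.16 at 0.5 h and ATP5MC3 from -0.50 to 0.075 at 24 h. Of 35 log2 fold changes of members named by rule, 25 moved by over 1.5 times when some 1 library was left out, and 7 of these turned sign. All 7 were in complex II or the c ring, whose genes were named whatever their p. Other members were named only for the smallest p in their complex, so these 7 cannot show that complex II and the c ring moved more than other members. The causes were not tested. The intervals given were widest for UQCR10 and ATP5ME, which had the fewest counts of the tested members.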

Other observations

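Over the 30 tested members, the median absolute log2 difference between the libraries of a group was 0.18 in untreated cells, 0.18 at 0.5 h and 0.10 at 24 h. In untreated cells the widest gap was in UQCR10, at 1.1597 on the log2 scale, and at both MPP+ times it was in ATP5ME, at 0.67 and 0.70.

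Genes listed at 0 in all 6 libraries occurred in the assembly lists as well, with 7 of 26 complex IV assembly factors (COX15, COX16, COA8, PET117, CMC2, HIGD1A and HIGD2A), 1 of 8 for complex III (LYRM7), 1 of 4 for complex II (SDHAF2) and 0 of 5 for ATP synthase, against 12.9% of protein-coding genes.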
